A study of Drosophila melanogaster with 9 samples.

Results

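A set of 59 genes with a CG number as their symbol had nearly the same RNA level in the mitotic and meiotic regions of the fly testis. Their level was much lower in the post-meiotic region. A CG number is the systematic label that the Drosophila genome project gave to a predicted gene, and it stays in use as the symbol until a gene receives a name. Members were chosen by the mean log2 intensities of the phases: they are the probe sets with exactly 1 symbol of the form CG and digits whose mean differed by less than 0.5 between mitosis and meiosis and was at least 3 higher in meiosis than in post-meiosis. A difference of 3 on this scale is a difference of 8-fold in intensity. Of the 5667 CG-numbered probe sets on the array 59 met both limits (1.04%), each for a different gene, and the array holds 18769 probe sets in all apart from controls. All 9 arrays entered this choice, so both steps are given below as a description and are not tested.

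RNA came from wild-type males of the TEMPE T strain, a line collected near Tempe, Arizona, and free of Wolbachia, aged 6 to 10 days. The apical tip was cut off for mitotic cells and the distal end for post-meiotic cells, whereas meiotic cells were pressed out of the sheath of the middle (proximal) part, with 3 biological replicates of each and 250 to 500 testes behind each replicate. No sample carried a mutation, transgene or treatment. A phase is therefore a region and not a purified cell type: the apical samples still held some primary spermatocyte cysts, the proximal ones some early spermatids and the distal ones some spermatocyte cysts. Since the samples are bulk RNA, fewer cells of a type and less RNA per cell cannot be told apart.

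In the testis of the fly, germline stem cells at the apical tip produce spermatogonia, which divide by mitosis and then become primary spermatocytes. Spermatocytes grow for days and transcribe most of the genes needed later, under a programme that depends on the meiotic arrest genes, before they pass through both meiotic divisions. Transcription is low in the spermatids that follow, which elongate on stored messages. A steep fall between the proximal and distal regions is a lower intensity in the distal samples. It does not tell whether spermatids lost the RNA or the samples held fewer of the cells that carry it.

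Marker genes followed the labels in part. Of 5 measured spermatogonial markers all 5 fell from mitosis to meiosis, and of 8 spermatid markers all 8 rose over that step (limma, adjusted p under 0.05), but after meiosis 4 of the 8 rose further and 3 fell. Of 12 spermatocyte markers 3 rose and 6 fell from mitosis to meiosis (median change -0.26), and all 12 fell after meiosis. Of all probe sets 24.3% were called higher and 26.3% lower from mitosis to meiosis, and 27.8% were called lower after it. The summed intensity of 3 measured sheath muscle genes (log2) lay between 7.45 and 8.0 on the mitotic arrays, between 6.74 and 6.78 on the meiotic and between 9.58 and 9.99 on the post-meiotic arrays, and all 3 genes rose after meiosis, so the distal samples held the most muscle RNA. Of 5 measured hub and cyst cell genes 3 fell from mitosis to meiosis (zfh1, tj and eya), and after meiosis zfh1 fell again and hh rose. The gene hh had means of 4.40, 4.46 and 7.31 in the order of the phases, whereas upd1, which defines the hub, stayed between 4.84 and 5.11. Of 5 accessory gland genes, Acp26Aa and Acp53Ea lay between 4.02 and 4.15 in all phases and SP between 5.47 and 5.61. Acp62F rose after meiosis from 5.81 to 6.15, but Acp36DE had means of 8.05, 8.48 and then 4.76, within the limits of the 59 genes. Of 3 fat body genes Lsp2 fell after meiosis from 7.79 to 7.05, whereas Fbp1 and Yp1 rose by 0.38 and 0.23. The part of somatic RNA in the falls described here was not tested.

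The members were well expressed before they fell. Their mean log2 intensity ran from 8.28 to 13.40 in mitosis (median 10.38) and from 7.98 to 13.24 in meiosis (median 10.35), whereas after meiosis it ran from 4.81 to 8.82 (median 6.42). Over all CG-numbered probe sets the medians of the same means were 7.24, 7.21 and 6.98. The limits favour high levels in mitosis and meiosis, since a fall of at least 3 needs room below it. The height of the earlier levels thus follows in part from the rule. Array by array, the median of the 59 genes was 10.56, 10.24 and 10.46 on the mitotic arrays, 10.30, 10.37 and 10.39 on the meiotic ones and 6.45, 6.40 and 6.41 on the post-meiotic ones. The 3 post-meiotic arrays thus stood together, far below the other 6. The fall from meiosis to post-meiosis ranged from 3.0 to 7.06 with a median of 3.56, against a median difference of -0.13 (meiotic minus post-meiotic) over all probe sets. It was at least 4 for 18 genes, at least 5 for 6 and at least 6 for 2, and it lay under 3.5 for 23.

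**Figure D1:**
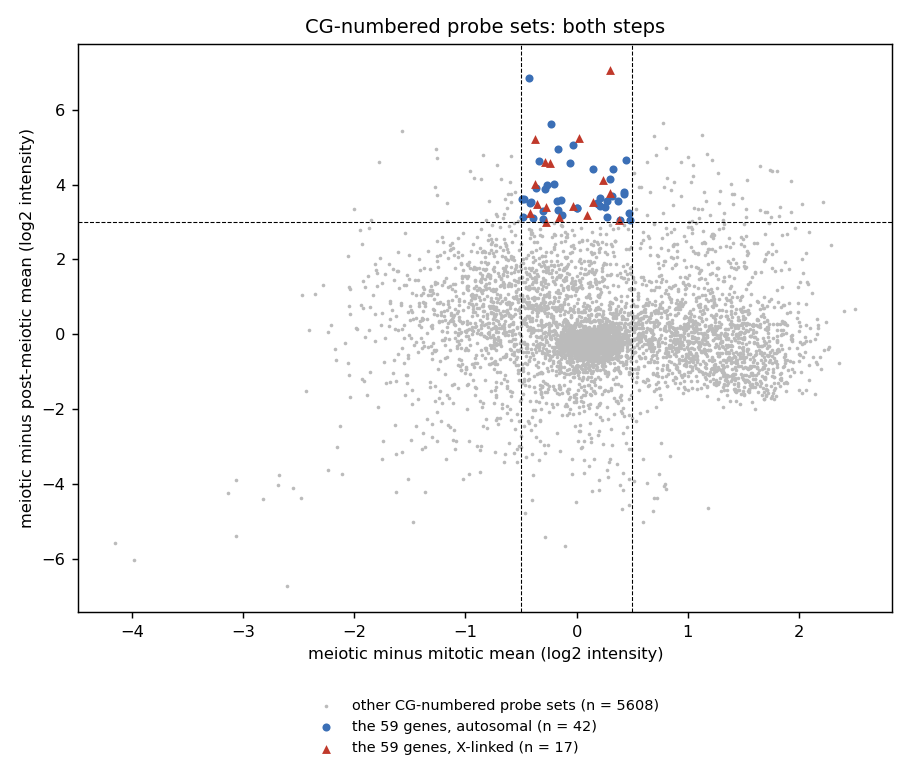
Difference of the phase means (log2 intensity, 3 arrays per phase) for the 5667 CG-numbered probe sets, with the mitotic to meiotic step on the x axis and the meiotic minus post-meiotic difference on the y axis; dashed lines are the limits at 0.5 either way and at 3, blue points are autosomal and red triangles X-linked members. The 59 genes fill the upper middle box, most of them under 5, and CG34434 and CG32259 lie highest.

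The largest falls belonged to CG34434 and CG32259. CG34434, which is X-linked, had intensities of 12.07, 11.78 and 11.92 in the 3 mitotic arrays, 12.18, 12.31 and 12.18 in the meiotic ones and 5.09, 5.28 and 5.11 in the post-meiotic ones. The fall of 7.06 (SE 0.09) is a 134-fold lower intensity. CG32259, on arm 3L, gave 12.66, 12.65 and 12.78 on the mitotic arrays and 12.26, 12.28 and 12.28 on the meiotic ones, but 5.14, 6.0 and 5.12 on the post-meiotic ones. Its post-meiotic replicate 2 was above the other two, and even this array was far below every earlier one. The fall was 6.85 (SE 0.18), or 116-fold.

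The next falls were smaller by more than 1 log2 unit. CG18518 went from 11.32, 11.35 and 11.45 in meiosis to 5.83, 5.94 and 5.51 in post-meiosis, a fall of 5.61 (SE 0.11). CG15040, X-linked, went from 10.10, 10.09 and 10.25 to 5.39, 4.71 and 4.66, a fall of 5.23 (SE 0.21). Its mitotic arrays were also uneven, at 10.60, 9.99 and 9.80, and its probe set is of the _x_at kind, which can cross-hybridize with other genes. CG10993, X-linked as well, went from 10.44, 10.43 and 10.40 to 4.80, 5.79 and 5.01, a fall of 5.22 (SE 0.19). CG7907 was the steadiest of these after meiosis, with 6.05, 6.06 and 6.04 against a meiotic mean of 11.11 ± 0.23 (SD, n = 3), a fall of 5.06 (SE 0.11). The fall then passed from 4.95 for CG12493 to 4.67 for CG8478, 4.62 for CG9641 and 4.61 for the X-linked CG42299.

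Most of the other genes fell by amounts that formed a continuous range. CG6220 (4.58), CG3919 (4.41), CG1603 (4.15) and CG1316 (4.02) fell by over 4, and CG3347 (3.98), CG9962 (3.90), CG31249 (3.87), CG43318 (3.79), CG10748 (3.74) and CG15653 (3.69) by somewhat less. Of these CG10748 and CG43318 were the brightest in meiosis, at 11.63 and 11.49, and remained at 7.88 and 7.70 after it. CG3225 (3.56), CG14667 (3.55), CG5916 (3.55), CG15142 (3.54), CG7137 (3.5) and CG31848 (3.5) fell by close to the median of the set. CG31807 (3.48), CG32281 (3.42), CG16753 (3.30), CG14722 (3.20) and CG7386 (3.12) were nearer the limit. Among X-linked genes of this range were CG12725 (3.77), CG4318 (3.53), CG14810 (3.43), CG3679 (3.41), CG8915 (3.23), CG17440 (3.18), CG32708 (3.14) and CG2694 (3.05). Of the 8 X-linked genes just named, CG3679 ended lowest, at 5.16 ± 0.17 (SD, n = 3) after 8.57 in meiosis.

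**Figure D2:**
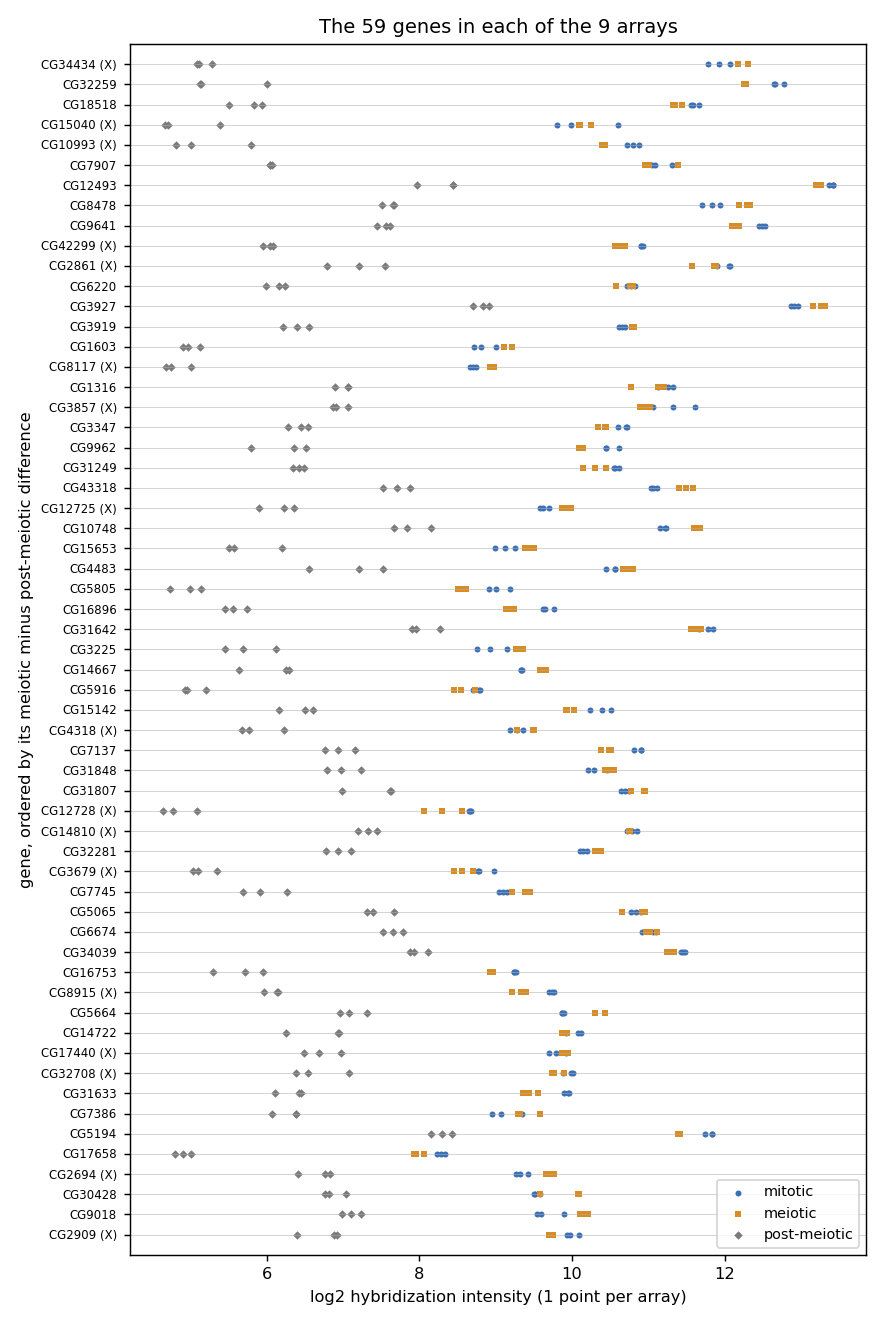
Log2 hybridization intensity (x axis) of the 59 genes (y axis, ordered by the meiotic minus post-meiotic difference, X-linked genes marked) with 1 point per array: blue circles for the 3 mitotic, orange squares for the 3 meiotic and grey diamonds for the 3 post-meiotic arrays. In each of the 59 rows the grey points lie left of all 6 others, and the blue and orange points lie less than 1 unit apart.

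For every one of the 59 genes, each post-meiotic array was below each meiotic array, as it was for 28.3% of all probe sets. Each post-meiotic array was also below each mitotic array for all 59 (29.6% of all probe sets). In limma (lmFit and eBayes over the 9 arrays, Benjamini-Hochberg adjusted p under 0.05) all 59 were called lower in post-meiosis than in meiosis, beside 27.8% of all probe sets. The limit on the fall used the same contrast, so these counts follow from the rule. The size of the fall moved with the scaling: after cyclic loess between arrays 40 of the 59 fell by at least 3, and the lowest fall was 2.48. Just inside the limit were CG2909 at 3.0, CG9018 at 3.05 and CG30428 at 3.05, and just outside it CG3491 at 2.97, CG14708 at 2.93 and CG5969 at 2.92.

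The step from mitosis to meiosis was small by the rule, yet it was not the same for all genes. By the means 32 genes were lower in meiosis and 27 higher, with a median step of -0.06 (meiotic minus mitotic) and quartiles of -0.29 and 0.27. For 17 genes the step was under 0.2 either way, and for 12 it was at least 0.4. The most even was CG5065, at 10.84, 10.77 and 10.91 in mitosis and 10.65, 10.95 and 10.92 in meiosis. This gene is also named FAR1 in RefSeq, after the fatty acyl-CoA reductase that makes fatty alcohols. CG6674 was as even, with means of 11.03 ± 0.09 (SD, n = 3) and 11.04 ± 0.08. The largest steps down were those of CG16896 (-0.49), CG31633 (-0.48) and CG5805 (-0.47), and the largest steps up those of CG9018 (0.48), CG5664 (0.47) and CG8478 (0.45). CG31633 is also named FBXL17, after a substrate receptor of a ubiquitin ligase, and its intensities were 9.90, 9.94 and 9.96 in mitosis against 9.36, 9.56 and 9.43 in meiosis, before a fall to 6.45, 6.41 and 6.10.

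Within the 0.5 limit, limma still called 12 of the 59 genes higher in meiosis than in mitosis (24.3% of all probe sets were) and 15 lower (26.3%). Together these 27 of 59 compare with 50.7% of all probe sets called in either direction, and the remaining 32 did not pass. The limit on the earlier step bounds these counts, so they are given as a description and nothing is read from their shares. The meiotic and mitotic arrays did not overlap for 44 of the 59, against 64.5% of all probe sets. Just outside the limit on this step, with falls of at least 3, were a second probe set of CG2861 (0.51), CG5986 (-0.53) and CG32100 (0.53).

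How far the rule repeats between replicates was also described, although every array had a part in the choice of the 59 genes. The rule was applied to 2 replicates of each phase, and the third was then examined, with its 3 arrays read as they stand. With replicate 1 held back 61 probe sets were chosen, and in replicate 1 the difference was at least 3 for 53 of them and both limits held for 46. With replicate 2 held back 61 were chosen, of which 54 and 46 did so, and with replicate 3 held back 54 were chosen, of which 49 and 47 did so. The shares meeting both limits were therefore 75.4%, 75.4% and 87.0%, whereas of all CG-numbered probe sets 0.900%, 0.988% and 1.11% met both limits in the same replicate alone. The median difference in the array set held back was 3.51, 3.63 and 3.72, and the lowest was 2.5, 2.52 and 2.67. Of the probe sets so chosen 59, 54 and 53, in the same order, were among the 59 genes. The replicates were normalized together, so the arrays held back are not fully separate. The shares above describe how the rule repeats and are no separate test of the 59 genes.

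The level after meiosis differed widely among the 59 genes, and for many of them "shut off" says more than the intensities do. In post-meiosis 28 genes were below the median of all probe sets in each of the 3 arrays, 23 were above it in each and 8 lay on both sides. An intensity of an array has no fixed zero, so 9 genes of the eggshell, which is made in the ovary, were set beside them, a choice made after the data were seen. Their post-meiotic means ran from 4.52 to 7.44, with a median of 6.05 over the 9, and Cp15 stood apart at 9.65. Of the 59 genes 20 had a post-meiotic mean at or below that median. Above 7.44, the highest eggshell mean when Cp15 is left out, were 11 genes, and no gene was above Cp15. Cp15 had means of 8.07 in mitosis and 9.41 in meiosis, so the eggshell genes are no fixed zero either. In meiosis all 59 were above the median of the eggshell genes, which the limit on the fall favours.

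The lowest signals after meiosis were those of CG8117, CG12728 and CG17658. CG8117, X-linked and also named dCrsp70 after a subunit of the Mediator of transcription, went from 8.92, 8.98 and 8.92 in meiosis to 4.68, 4.75 and 5.01. CG12728, X-linked and also named XLF1 or XRCC4 after factors that join broken DNA ends, went from 8.06, 8.56 and 8.30 in meiosis to 5.08, 4.77 and 4.64, after 8.65, 8.68 and 8.67 in mitosis. CG17658 went from 7.98 ± 0.07 (SD, n = 3) in meiosis, the lowest meiotic level of the set, to 4.90 ± 0.11. These genes started low and ended low.

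The highest signals after meiosis were those of CG3927, CG5194, CG12493, CG31642 and CG34039. CG3927 had the highest meiotic mean of the set too: it went from 13.26, 13.15 and 13.31 to 8.71, 8.91 and 8.83. CG12493 went from 13.26, 13.20 and 13.23 to 8.44, 8.44 and 7.97. In their post-meiotic arrays both genes ranked above at least 71.6% of all probe sets. CG5194 (8.29 ± 0.14, SD, n = 3), CG31642 (8.05 ± 0.20) and CG34039 (7.97 ± 0.13) ended nearly as high after falls of 3.12, 3.57 and 3.32. Across the 59 genes the meiotic and post-meiotic means were related with a Pearson r of 0.70, and the meiotic mean and the fall with one of 0.55. These are values across genes measured on the same arrays, and the second pair shares the meiotic mean. The limit on the fall ties the post-meiotic mean to the meiotic one, so the first r follows in part from the rule.

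**Figure D3:**
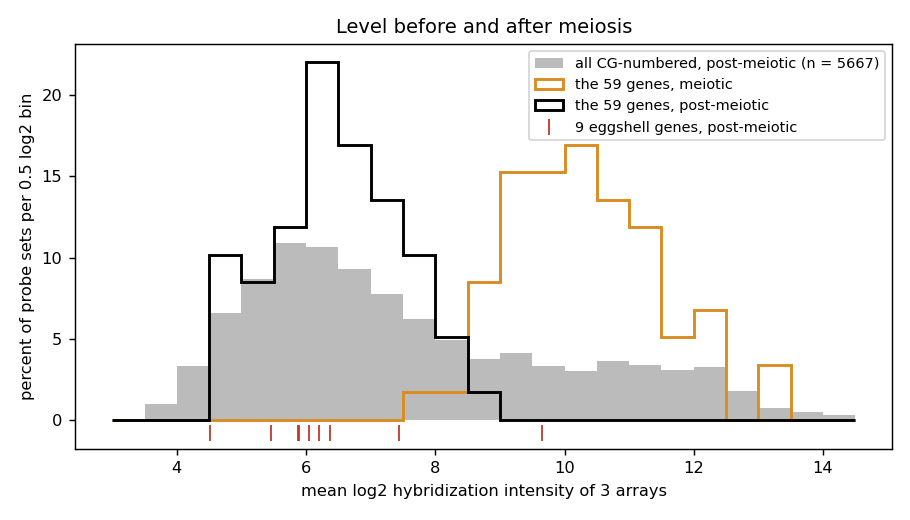
Share of probe sets (y axis, percent per 0.5 log2 bin) by mean log2 intensity of 3 arrays (x axis) for all 5667 CG-numbered probe sets in post-meiosis (grey), for the 59 genes in meiosis (orange line) and in post-meiosis (black line); red ticks are the post-meiotic means of 9 eggshell genes. The median of the 59 genes moves from 10.35 to 6.42, and the post-meiotic values reach from 4.81 to 8.82 across the range of most eggshell genes.

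Replicates of the 59 genes spread more after meiosis than before it. The median SD over 3 replicates was 0.07 for both earlier phases and 0.19 for post-meiosis, and over all probe sets it was 0.09 in mitosis, 0.08 in meiosis and 0.14 after it. The widest post-meiotic spread was that of CG10993 (SD 0.52), followed by CG32259 (0.51) and CG4483 (0.50). CG4483 went from 10.80, 10.71 and 10.66 in meiosis to 6.55, 7.52 and 7.20. In post-meiotic replicates 1, 2 and 3, 29, 37 and 22 of the 59 genes were above their own post-meiotic mean. The median deviations from that mean were -0.001, 0.05 and -0.07 in the same order. Among the earlier arrays 11 were above their phase mean in mitotic replicate 2 and 18 in meiotic replicate 1, against 36 to 38 in the others. The median deviations in these 2 arrays were small, at -0.05 and -0.04.

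A further probe set of the same gene was present for 3 of the 59 genes, and all 4 of these probe sets missed the rule. For CG2861, X-linked, the second probe set fell by 4.30 against 4.59, but its earlier step of 0.51 was just past the limit. For CG3857, X-linked, the probe set of the rule fell by 4.01, from 10.90, 10.96 and 11.02 to 7.06, 6.87 and 6.91, whereas the other went from 7.82, 8.17 and 7.82 to 6.13, 5.79 and 6.04, a difference of 1.95. For CG9018 the probe set of the rule fell by 3.05 and the others differed by 1.85 and 1.70, with steps from mitosis to meiosis of -0.17 and -0.65. The fall of CG3857 and CG9018 thus depends on the probe set. Besides 1 probe set of the _x_at kind, 2 of the members were of the _s_at and 3 of the _a_at kind, which are shared among transcripts or genes, and 53 were of none of these.

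The X chromosome held 17 of the 59 genes, 3L 14, 2L and 2R 10 each and 3R 8, and none lay on chromosome 4. Of the CG-numbered probe sets of the X 1.75% were members, against 0.912% of those of the autosomes, where the share ran from 0.589% on 3R to 1.25% on 3L. The X held 28.8% of the members and 17.5% of all CG-numbered probe sets with an arm. Whatever the earlier step, 3.08% of the X-linked and 2.60% of the autosomal ones fell by at least 3. Of the 30 such X-linked probe sets 17 kept their level from mitosis to meiosis, 8 rose by at least 0.5 and 5 dropped by as much. Of the 120 autosomal ones 42 kept it, 54 rose and 24 dropped. A step within 0.5 was found for 59.8% of all CG-numbered probe sets of the X and for 56.9% of those of the autosomes. Among the steep falls, then, an even earlier level was found for 56.7% on the X and for 35.0% on the autosomes.

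**Figure D4:**
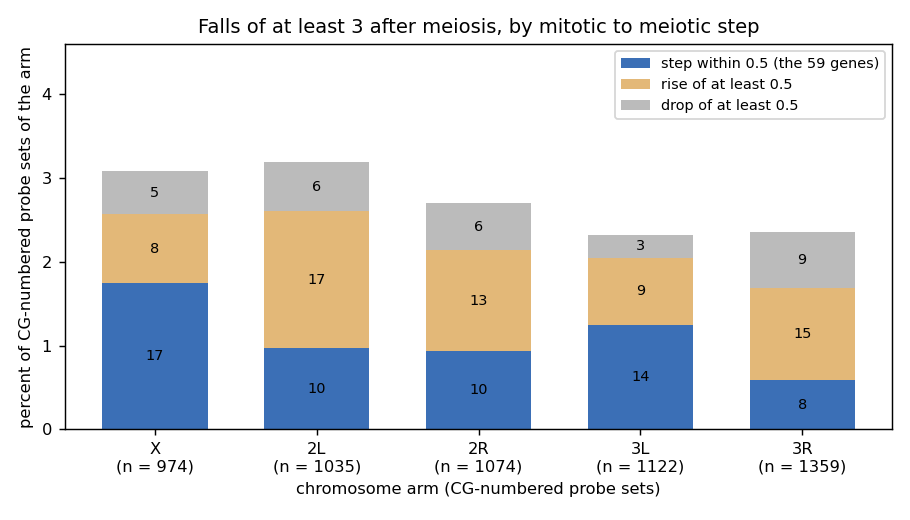
Percent of the CG-numbered probe sets of each chromosome arm (x axis, total number in brackets) with a meiotic minus post-meiotic difference of at least 3 (bar height), divided by the step from mitosis to meiosis: within 0.5 (blue, the 59 genes), a rise (tan) or a drop (grey) of at least 0.5; numbers are counts of probe sets. The blue part is highest on the X (1.75%) and lowest on 3R (0.589%).

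For probe sets with another kind of symbol the order of the X and the autosomes was the opposite. Of 7980 such probe sets 73 met both limits (0.915%, beside 1.04% of the CG-numbered ones), and 9.59% of these were X-linked. They made up 0.579% of the X-linked (7 of 1210) and 0.980% of the autosomal ones (66 of 6737), so the order rests on few X-linked probe sets. No test was made of either difference, since the members were chosen with results known. The X-linked members were much like the others in the fall, with a median of 3.53 against 3.57 on the autosomes. Their median meiotic mean was lower, at 9.90 against 10.43, and their median earlier step was -0.16 against -0.05. The largest falls on the X were those of CG34434, CG15040, CG10993, CG42299 and CG2861. CG42299, with 10.91, 10.93 and 10.91 in mitosis and 10.56, 10.70 and 10.64 in meiosis, fell to 5.95, 6.04 and 6.08. CG2861 fell from 11.57, 11.86 and 11.89 to 7.55, 7.21 and 6.79, the less even of the pair.

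The 59 genes were scattered along the chromosomes, and the genes beside them were much like all genes in their later step. No pair of members had fewer than 6 protein-coding genes between them, the closest being CG3919 and CG34039. Of the 117 protein-coding genes next to a member in the order of RefSeq (Drosophila melanogaster Release 6), 103 had a named probe set. None of the 103 fell by 3 or more, beside 2.57% of all genes, members included, a share that would be few of 103. Their median meiotic minus post-meiotic difference was -0.08, as it was over all genes (-0.08, 1 probe set per gene). It was at least 1 for 22.3% of the neighbours and for 20.4% of all genes, and -1 or lower for 10.7% and 11.8%. The largest falls among neighbours were those of stai, beside CG31642 (2.81), and of stwl, a gene of germline stem cell maintenance, beside CG3919 (2.78). CG44085, beside CG31848, went the other way, with a difference of -3.28.

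**Figure D5:**
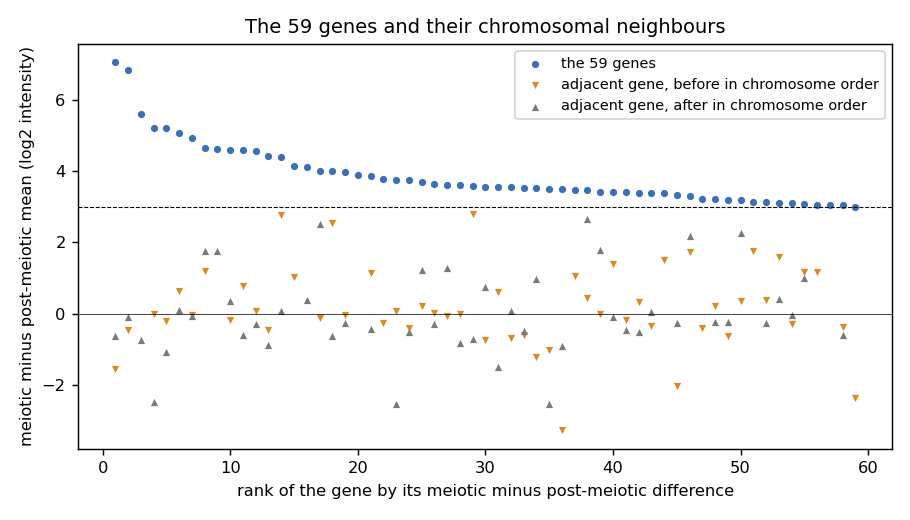
Meiotic minus post-meiotic mean (y axis, log2 intensity) of the 59 genes (blue circles, x axis by rank of that difference) and of the measured protein-coding genes directly before (orange) and after (grey) each on its chromosome; the dashed line is the limit of 3. The neighbours centre on -0.08 and none reaches 3.

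Genes of the meiotic arrest programme, which acts on transcription in spermatocytes, shared the later fall, and a part of them met both limits. Of 15 measured genes of a list of meiotic arrest, testis TAF and testis bromodomain genes, all 15 fell from meiosis to post-meiosis (limma, 27.8% of all probe sets were called lower), with a median change of -3.36, and 5 of them met both limits of the 59 genes. They were vis, a homeodomain gene, kmg, a zinc finger gene that blocks somatic promoters in spermatocytes, and the bromodomain genes tbrd-1, tbrd-2 and tbrd-3. The genes aly, comr, topi, tomb, achi, wuc, can, sa, nht and mia missed at least 1 limit. The largest change was that of tbrd-2, from 11.99 to 5.96 (-6.03, limma SE 0.08). Over the earlier step the list was mixed, with 3 genes up (24.3% of all probe sets were), 7 down (26.3%) and 5 not called.

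Genes of the meiotic divisions were more mixed. Of 8 measured genes 7 fell after meiosis (limma, 27.8% of all probe sets were called lower), with a median change of -1.91, and fzr2 rose by 0.26. The calls of rux and fzr2 depended on the scaling: with cyclic loess rux changed by -0.13 (limma adjusted p = 0.18), which left 6 genes lower, and with centred arrays fzr2 changed by 0.11 (adjusted p = 0.27). Both limits were met by fzy, which turns on the anaphase-promoting complex, and by aurB, a kinase of chromosome segregation: fzy fell by 4.86 and aurB fell by 3.11. The other probe sets of fzy changed by -0.09 and 0.07, so its fall rests on 1 probe set of 3. CycB3 missed only the limit on the earlier step (0.53) and fell by 4.24. The translation regulator bol fell by 0.43 and stayed at 12.74 (its other probe sets changed by -1.33 and -0.01), and rux, an inhibitor of Cyclin A kinase, stayed at 11.07. Both lists were picked for function and not for their change, but with earlier results of these data known.

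Among the 73 probe sets with another symbol, the 5 closest to the median profile of the 59 genes were LS2, Rb97D, dgrn, qkr58E-3 and jb. Likeness was the root mean square distance over 9 arrays, after the mean of the mitotic and meiotic phases was subtracted from each gene, and it was 0.10, 0.12, 0.12, 0.14 and 0.15 in that order. The 59 genes themselves lay 0.10 to 1.96 from their own median profile (median 0.28). LS2, a testis paralog of the large splicing factor subunit U2AF, had means of 10.75, 10.59 and 6.90. Rb97D, an RNA-binding protein gene needed for male fertility, had means of 12.61, 12.67 and 9.11.

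In RefSeq all 59 are protein-coding genes and all 59 still carry a CG number as their symbol. Another protein name stands beside the symbol for 6 of them: CG8117, CG12728, CG7745, CG5065, CG34039 and CG31633. CG7745, also named CC8, fell from 9.22, 9.45 and 9.39 in meiosis to 5.69, 6.27 and 5.91. A single RefSeq transcript is given for 36 of the 59 genes and several for 23.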

How the data were processed

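Testis RNA was hybridized to Affymetrix Drosophila Genome 2.0 arrays, 1 per sample and 9 in all. The deposited values are log2 intensities that the authors made by RMA background correction and quantile normalization in R (version not given in the sources used here). They were used without further scaling, and the number of arrays, not a read depth, limits the precision. Of 18952 probe sets 183 controls were left out. Symbols came from the annotation of the array (13647 probe sets with 1 symbol, 402 with several, 4720 with none), and arms and gene order from RefSeq Release 6 by gene ID. No genome build is named for the array, so no coordinates are given, and promoter and protein sequences were not used here, so the motif and identity comparisons planned were not made. Members and lists were chosen with earlier results of these data known. The phases were fitted with limma 3.58.1 (R 4.3.3), with Benjamini-Hochberg adjustment over 18769 probe sets and a threshold of 0.05 on the adjusted p. The limma script was tested on simulated data. SEs are those of limma, and SDs are over 3 replicates. Genes with several probe sets were represented in lists and neighbours by the one with the highest mean. Genes named are the extremes of each measure, those nearest the limits, X-linked genes with the largest falls, genes with a second probe set and the named genes closest in profile. Tables were handled with Python 3.11.15 (pandas 2.3.3, numpy 2.4.6) and drawn with matplotlib 3.10.9. Alternatives were centred arrays, cyclic loess, other limits, a filter on dim probe sets, no shared probe sets, fits without each array in turn and a fit with the replicate block.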

Additional observations from a re-analysis of the deposited data

How the results depend on the processing

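The number of genes within the limits was 59, and it was 64 with each array centred on its median (56 of the 59 among them) and 43 with cyclic loess between arrays (35 of the 59). It was 95 with a fall of at least 2.5, 36 with at least 3.5, and 34 with a step below 0.3. Without 1 array at a time it ran from 56 to 60, and 48 genes stayed within the limits whichever array was left out. The median fall of 3.56 was 3.71 with centred arrays and 3.16 with cyclic loess, where 40 of the 59 still fell by at least 3 and the lowest fall was 2.48. Without 1 array it ran from 3.56 to 3.63. The median step from mitosis to meiosis was -0.06 as deposited, 0.003 with centred arrays and 0.10 with cyclic loess. A step under 0.5 was kept by 56 of the 59 with centred arrays and by 48 with cyclic loess. Over all probe sets the median difference was -0.13 as deposited, 0.02 with centred arrays and -0.01 with cyclic loess. Of the genes of the meiotic divisions 7 were called lower after meiosis, and 6 with cyclic loess. The cause of the shifts with scaling was not tested.

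Replicate numbers are shared between phases by label alone. Same-numbered arrays did not deviate together in every pair (r -0.09 to 0.36), so no pairing was used. With the replicate block all 59 were called lower in post-meiosis, as without it, and 28 in place of 27 differed between mitosis and meiosis. Without 1 array the latter count ran from 19 to 37.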
